A study of Mus musculus with 6 samples.

Results

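The 10 genes described here encode proteins that megakaryocytes use to extend proplatelets and to form and release platelet granules: Nfe2, Tubb1, Myh9, Myl9, Mylk, Flna, Tpm4, Nbeal2, Rab27b and Plek. They were taken from the 18193 genes named on the array by symbol alone, as every probe set whose platform annotation gives exactly 1 gene symbol and that symbol is 1 of the 10. This gave 22 probe sets, with 1 each for 5 genes and several each for the other 5. RNA was measured on 6 Affymetrix mouse arrays. The cells were megakaryocyte progenitors (MkP), flow-sorted by the absence of lineage markers and Sca-1 and the presence of c-kit, CD150 and CD41. The bone marrow group has 3 arrays, from adults 12 to 18 weeks old, and the fetal liver group has 3, from embryos at E13.5. Every sample came from C57BL/6 mice labelled with the genotype GATA1s, a version of the transcription factor GATA1 that lacks its amino-terminal end, so both tissues carry it, and progenitors with the full-length protein were not analysed here. The comparison is thus between adult and fetal progenitors of 1 genotype. The labels call the samples biological replicates without giving the number of animals in each, so a p-value here reflects only how far these samples scatter.

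A megakaryocyte sheds platelets by pushing out long proplatelets, whose shafts are bundles of microtubules that slide on each other, while actin and nonmuscle myosin shape and branch them. The transcription factor NF-E2, a dimer of the Nfe2 product (p45) with a small Maf protein, is required late in this programme, and the tubulin gene Tubb1 is among its best-known targets. Alpha and dense granules are built in the megakaryocyte, carried along the microtubules and emptied by the activated platelet through Rab GTPases, SNARE proteins and protein kinase C.

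The values are MAS5 signals, a linear brightness per probe set and array that the authors scaled so that the trimmed mean of each array is 500. Log2 fold changes are bone marrow minus fetal liver, given with the SE of limma's fit over all 27022 probe sets brighter than a filter, and a call is a Benjamini-Hochberg adjusted p under 0.05 over all of them. Median signal was 65.9 to 74.6 on bone marrow arrays and 52.0 to 59.1 on fetal liver arrays, and the level of unspiked bacterial control probe sets (95th percentile) was 10.6. Sorted samples differed in more than the megakaryocyte genes. All 15 tested granulocyte and monocyte markers rose in bone marrow, with summed signals of 57772 to 74289 there and 7923 to 9891 in fetal liver, and so did 6 of 6 macrophage, 5 of 5 mast cell and basophil and 6 of 8 lymphoid markers. Of 13 tested megakaryocyte markers 1 was higher and 4 lower in bone marrow, with summed signals of 33149 to 40310 there and 29687 to 48977 in fetal liver. Itga2b, which encodes CD41 of the sort, did not pass (log2 fold change -0.01, limma adjusted p = 0.965), nor did Pf4, platelet factor 4 (0.16, adjusted p = 0.432), while Gp9, part of the von Willebrand factor receptor, fell by 1.23 ± 0.18 on the log2 scale (SE, adjusted p = 0.000870), and by 1.45 without fetal liver replicate 1. The 1 higher marker, named after its value was seen, was Selp, P-selectin of the alpha granule membrane, at 2958 ± 271 in bone marrow and 339.8 ± 161 in fetal liver (log2 fold change 3.25 ± 0.32, limma adjusted p = 6.67e-05), with all 3 of its probe sets higher. The part of other cell types in the results below was not tested, and in such bulk samples fewer cells with a transcript and less of it per cell cannot be told apart.

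Fetal liver replicate 1 stood apart from the other fetal liver arrays for megakaryocyte genes. There, all 13 megakaryocyte markers were dimmer than their average over the other 2 fetal liver arrays, with a median log2 difference of -0.77. Of the 9 genes of the set that passed the filter 8 lay below, with a median difference of -0.42, which was -1.13 for Tubb1, -0.75 for Tpm4, -0.71 for Flna and -0.55 for Nbeal2. Over all 11645 genes that passed, the same median was 0.00 and 49.4% lay below. No other array had a median of the set beyond 0.21 in size. Values without fetal liver replicate 1 are given beside results of the set where it changed a call, and beside some others. Where no such value is given, the result may still have changed in size.

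**Figure D1:**
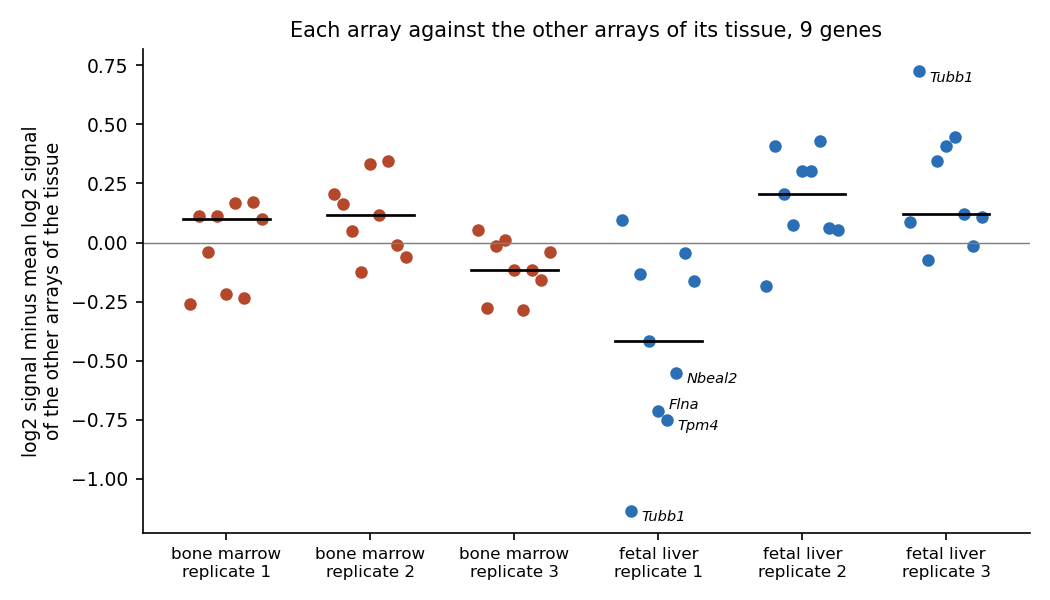
Each point is 1 of the 9 filtered genes (brightest probe set) on 1 array, plotted as its log2 signal minus the mean log2 signal of the other 2 arrays of the same tissue, and black lines are medians. On fetal liver replicate 1 the median is -0.42 and Tubb1, Tpm4, Flna and Nbeal2 lie furthest below 0, while the medians of the other 5 arrays lie between -0.11 and 0.21.

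Each gene that passed the filter was represented by its brightest filtered probe set. On that basis 3 of 9 genes were lower in bone marrow, Tubb1, Tpm4 and Nbeal2, and limma called 0 higher, also at an unadjusted p under 0.05. Across the array 33.2% of 11645 genes were called, 17.3% higher and 15.9% lower, so the share of the set that was called (33.3%) was near the background. Signals of the tissues did not overlap for 4 of the 9, those 3 and Rab27b, all lower in bone marrow, against 50.5% of all genes in either direction. Tubb1 and Tpm4 were called and lower by at least 1 log2 unit, which held for 3.98% of all genes. The median log2 fold change of the 9 was -0.22, against -0.04 for all genes. The tenth gene, Myl9, lay below the filter and is described with its signals.

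**Figure D2:**
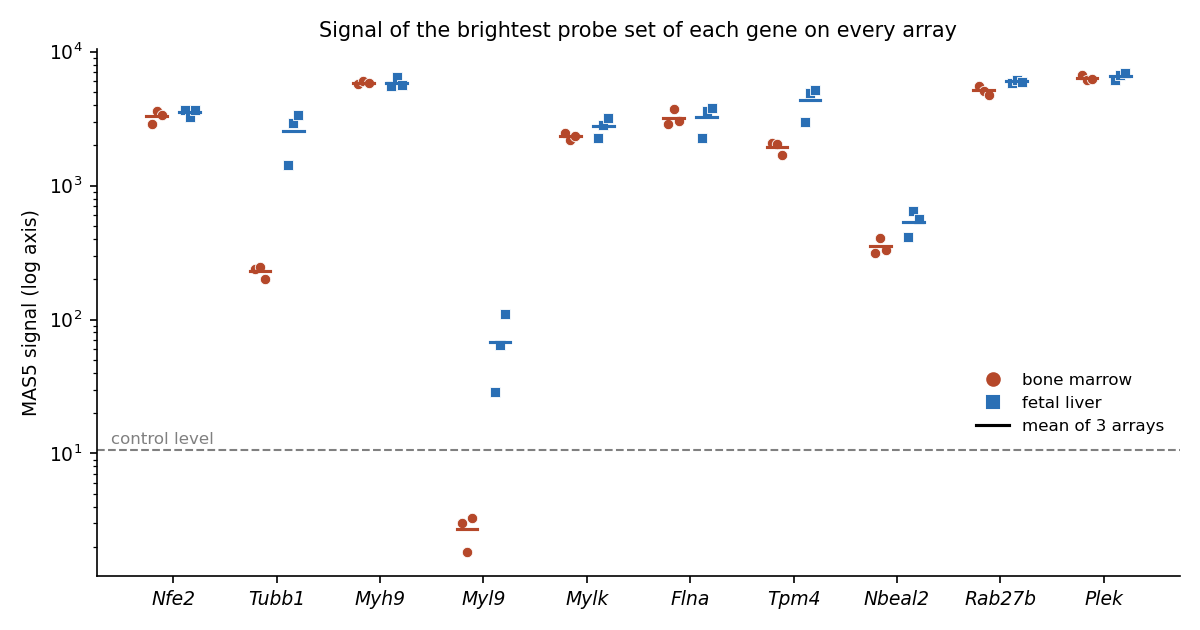
MAS5 signal on a log axis for the brightest probe set of each of the 10 genes on every bone marrow array (circles) and fetal liver array (squares), with horizontal bars at the mean of 3 arrays and a dashed line at the control level of 10.6. Tubb1, Tpm4 and Nbeal2 lie lower in all bone marrow samples, Myl9 lies below the control level in bone marrow, and Nfe2, Myh9, Mylk, Flna and Plek overlap between the tissues.

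Start-site windows of 300 bases (250 before and 50 after the start, RefSeq, GRCm38.p6) were searched for 8 of the 10 genes. Nfe2 had no matched window, and Rab27b was left out of the search. Tubb1 and Tpm4 had the largest called differences among brightest probe sets, and Mylk and Myl9 held the only motif matches among the 8. The windows of these genes are given 5′ to 3′ on the gene's strand, with a match in capitals. They are chr2:174450345-174450644 for Tubb1, chr8:72135038-72135337 for Tpm4, chr16:34784700-34784999 for Mylk and chr2:156775214-156775513 for Myl9, all on the plus strand.
Tubb1: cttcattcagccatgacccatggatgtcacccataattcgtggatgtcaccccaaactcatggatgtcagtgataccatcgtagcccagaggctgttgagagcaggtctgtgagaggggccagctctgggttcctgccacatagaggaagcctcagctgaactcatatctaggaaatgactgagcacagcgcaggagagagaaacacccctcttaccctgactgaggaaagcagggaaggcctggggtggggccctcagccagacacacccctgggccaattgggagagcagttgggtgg
Tpm4: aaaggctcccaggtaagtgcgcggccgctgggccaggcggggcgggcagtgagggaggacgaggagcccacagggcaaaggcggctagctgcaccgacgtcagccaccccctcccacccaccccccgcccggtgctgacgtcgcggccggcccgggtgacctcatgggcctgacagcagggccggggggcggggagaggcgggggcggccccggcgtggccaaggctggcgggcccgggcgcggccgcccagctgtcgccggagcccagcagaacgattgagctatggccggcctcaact
Mylk: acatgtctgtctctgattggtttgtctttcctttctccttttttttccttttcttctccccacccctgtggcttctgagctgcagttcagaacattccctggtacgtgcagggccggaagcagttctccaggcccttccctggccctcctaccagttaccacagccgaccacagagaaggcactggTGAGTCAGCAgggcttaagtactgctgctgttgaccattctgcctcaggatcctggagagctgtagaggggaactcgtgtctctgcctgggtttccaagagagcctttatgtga
Myl9: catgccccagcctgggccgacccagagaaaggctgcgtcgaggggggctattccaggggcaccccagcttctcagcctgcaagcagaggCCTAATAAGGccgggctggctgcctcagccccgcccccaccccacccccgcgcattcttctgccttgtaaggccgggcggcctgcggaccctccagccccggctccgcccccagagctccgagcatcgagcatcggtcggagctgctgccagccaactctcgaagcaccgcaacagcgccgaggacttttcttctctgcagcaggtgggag
The motifs searched on both strands were TGANTCA, the core that AP-1 and NF-E2 share, a longer form in which GCA follows that core, which NF-E2 and related dimers prefer, the GATA motif AGATAA, and the CArG box of serum response factor. Mylk held a longer-form match whose first base lies at position -64 from the start, and Myl9 a CArG box at position -161. Each of the core, the longer form and the CArG box was thus in 1 of 8 windows and AGATAA in 0, against 7.81%, 0.423%, 1.63% and 11.2% of 32851 windows of the same length. A match describes these letters and is not a bound site.

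Nfe2, the p45 subunit of NF-E2, did not pass the test. Its signals were 2893, 3593 and 3349.8 in bone marrow, against 3673, 3224 and 3655 in fetal liver, so the tissues overlapped. The log2 fold change was -0.10 ± 0.10 (SE, limma adjusted p = 0.495), with a 95% interval of -0.33 to 0.13. Among 8 partners and relatives of Nfe2, the small Maf and cap'n'collar factors, 4 were higher and 0 lower (median log2 fold change 0.48, limma), and 2 were called without bone marrow replicate 3. Bach2, a repressor that also pairs with small Maf proteins and is best known in B cells, averaged 383 ± 111 in bone marrow and 67.9 ± 32.9 in fetal liver (n = 3 each, SD). The log2 difference was 2.60 ± 0.39 (limma adjusted p = 0.000979), and all 3 of its probe sets were higher. Maff, a small Maf, was higher by 1.91 ± 0.47 (SE, limma adjusted p = 0.0136). Mafk, a small Maf and NF-E2 partner, had a log2 fold change of 0.55 ± 0.16 (limma adjusted p = 0.0323), but its call held in 10 of 18 alternative settings, and it was lost without bone marrow replicate 1 (0.0917) or 3 (0.0782) and without fetal liver replicate 1 (0.0602) or 3 (0.0993). Nfe2l2, the stress-response relative of Nfe2, was at 0.41 ± 0.13 by its brightest probe set (adjusted p = 0.0404, limma). That call was kept in 9 of 18 and lost without bone marrow replicate 2 (0.131) or 3 (0.120) and without fetal liver replicate 1 (0.0873) or 2 (0.110). The dimmer Nfe2l2 probe set was called higher as well, at 2.12. Mafg, the partner best known in megakaryocytes, did not pass (0.30, limma adjusted p = 0.116). Some transcription factors of platelet maturation fell. Gfi1b, a repressor that partners GATA1, had a log2 fold change of -0.75 ± 0.08 (limma adjusted p = 0.000157). Gata1 itself was at -0.49 ± 0.12 (limma adjusted p = 0.0165, lost without fetal liver replicate 2 at 0.0523). Its cofactor Zfpm1 was at -0.38 ± 0.11 (limma adjusted p = 0.0333), a call lost without any single array but fetal liver replicate 1 (0.0508 to 0.132). Of 10 tested factors of this list 5 were lower and 0 higher, against 15.9% lower and 17.3% higher of all genes. These counts are by the brightest probe set. By probe set, 2 of 6 for Runx1 and 1 of 2 for Zfpm1 were called lower and the rest were not called. Gfi1b, Gata1 and Zfpm1 had the smallest adjusted p. No probe set of Fli1, Srf, Mrtfa or Mrtfb was called, and 1 of 3 Myb probe sets was called higher. The Gata1 signal is no check of the genotype label, since where its probes lie in the transcript was not examined.

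Tubb1, the beta-tubulin of mature megakaryocytes and of the platelet's marginal microtubule band, showed the largest tested difference of the set. Only 1 probe set measured Tubb1. Signals were 239.5, 245 and 200.1 in bone marrow, against 1426, 2911 and 3367 in fetal liver. The highest bone marrow array was far below the lowest fetal liver array, and the bone marrow arrays lay close together. Means were 228 ± 24.5 in bone marrow and 2568 ± 1015 in fetal liver samples (SD, n = 3 each). The log2 fold change was -3.41 ± 0.28 (SE, limma adjusted p = 1.94e-05), a 10.6-fold lower level, with a 95% interval of -4.02 to -2.79. It ranked 47th from the lowest among 11645 genes, 97.1% of which had a smaller difference in size. Without fetal liver replicate 1 the value was -3.78 (adjusted p = 4.39e-07, limma).

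The 5 genes whose profile over the 6 arrays was most like that of Tubb1 were found by the root mean square difference of centred log2 signals. They were Akap5, an anchor of protein kinase A (0.20 log2 units), Tfpi2, a protease inhibitor (0.23), Cald1, the actin-binding protein caldesmon (0.24), Rps4l, a ribosomal protein S4 paralogue (0.25), and Sla2, a Src-like adaptor (0.28). Their log2 fold changes were -3.30, -3.05, -3.44, -3.48 and -3.06, in that order. In fetal liver, replicate 1 was the lowest array for each of the 5, as it was for Tubb1. These genes were chosen for that likeness, so their values are a description.

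Among 27 tested tubulins and microtubule factors 3 were higher and 5 lower (29.6% called, median log2 fold change -0.13). Tubb4b, a broadly expressed beta-tubulin, averaged 3158 ± 233 in bone marrow and 4395 ± 616 in fetal liver samples (SD, n = 3 each), a log2 fold change of -0.47 ± 0.11 (limma adjusted p = 0.0113), lost without bone marrow replicate 3, where its adjusted p lay at the threshold. Tubb5, the main beta-tubulin of many dividing cells, had a log2 fold change of -0.13 ± 0.07 by its brightest probe set (limma adjusted p = 0.183). The other Tubb5 probe set was called lower, at -0.30. Tubb5 was also called lower by the mean of its probe sets (-0.22, limma adjusted p = 0.049994) and under median centring (-0.47, 0.0121). Tuba1a, an alpha-tubulin, ran the other way, with 4644 ± 328 in bone marrow and 1856 ± 112 in fetal liver (log2 fold change 1.32 ± 0.09, limma adjusted p = 7.76e-06). Among plus-end factors, Clip1 was higher (1.31 ± 0.16, limma adjusted p = 0.000249) and Mapre3 lower (-2.13 ± 0.43, adjusted p = 0.00536) at a dim bone marrow mean of 18.9. The brighter Mapre1 (0.05, limma adjusted p = 0.759) and Mapre2 (-0.03, 0.812) were not called by any tested probe set. Gamma-tubulin Tubg1, which nucleates microtubules, was lower (-0.70 ± 0.14, limma adjusted p = 0.00549), as was the spindle factor Tacc3 (-0.65 ± 0.10, adjusted p = 0.000970). Ttl, which adds the terminal tyrosine back to alpha-tubulin, was higher (0.78 ± 0.20, limma adjusted p = 0.0173), a call lost without bone marrow replicate 2 (0.0641) or fetal liver replicate 3 (0.0576) and under quantile normalization (0.0936) or median centring (0.129). Ttl had 4 tested probe sets, of which 2 were called higher.

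Of the actomyosin genes, the heavy chain and the crosslinker did not pass the test, while a tropomyosin fell and the light chain gene Myl9 was near background in bone marrow. Myh9 encodes the heavy chain of nonmuscle myosin IIA, the myosin of platelets, whose mutation causes large platelets in people. Its brightest probe set read 5769, 6011 and 5837 in bone marrow, against 5495, 6424 and 5643 in fetal liver, and the tissues overlapped. The log2 fold change was 0.01 ± 0.08 (SE, limma adjusted p = 0.952), with a 95% interval of -0.17 to 0.19. Its sign turned under median centring (-0.33). It also turned without bone marrow replicate 2 (-0.009), fetal liver replicate 1 (-0.04) or fetal liver replicate 3 (-0.02), and Myh9 was called in none of these. The other 4 Myh9 probe sets ran between -0.06 and 0.44, and none was called. Flna, filamin A, which crosslinks actin and ties it to the von Willebrand factor receptor, read 2886, 3725 and 3029 in bone marrow, against 2264, 3617 and 3800.3 in fetal liver. These overlapped, with a log2 fold change of 0.02 ± 0.18 (limma adjusted p = 0.943) and a 95% interval of -0.39 to 0.43. Without fetal liver replicate 1 the value was -0.22 (adjusted p = 0.206, limma), and under median centring -0.32, neither of them called.

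Tpm4, a tropomyosin that coats actin filaments and whose loss gives large platelets, fell by its only probe set. Signals were 2081, 2031 and 1689 in bone marrow, against 3003, 4884 and 5212 in fetal liver, with no overlap. Means were 1934 ± 213 in bone marrow and 4367 ± 1192 in fetal liver samples (SD, n = 3 each). The log2 fold change was -1.14 ± 0.19 (SE, limma adjusted p = 0.00170), or 2.20-fold lower, with a 95% interval of -1.56 to -0.72, and -1.39 without fetal liver replicate 1 (adjusted p = 2.01e-05). With a floor at the control level and no filter the call was lost (adjusted p = 0.0550, limma).

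Myl9 encodes a regulatory light chain of that myosin, and Mylk the kinase that switches it on. Myl9 signals were 3.04, 1.85 and 3.29 in bone marrow, against 28.7, 64.7 and 109.6 in fetal liver. All 3 bone marrow arrays were below the control level of 10.6 and all 3 fetal liver arrays above it, although the fetal liver signals were themselves dim and spread widely. Set against the control level, Myl9 was at least 5.53-fold lower in bone marrow. Its probe set did not pass the filter, so it has no test in the main fit. Without the filter the log2 fold change was -4.48 ± 0.65 (SE, limma adjusted p = 0.000942), which is no bound on the size, and with signals floored at the control level as well it was -2.47 ± 0.52 and not called (adjusted p = 0.0512). The Myl9 paralogues Myl12a and Myl12b were far brighter, and neither was called. Means for Myl12a were 4877 in bone marrow and 5480 in fetal liver (log2 fold change -0.17, limma adjusted p = 0.181). Those for Myl12b were 7079 in bone marrow and 6305 in fetal liver (0.17, 0.0934).

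The 3 Mylk probe sets were designed from 1 GenBank record and differed in size. The brightest read 2459, 2205 and 2346 in bone marrow, against 2254, 2828 and 3206 in fetal liver, and did not pass (log2 fold change -0.23 ± 0.13, limma adjusted p = 0.223). The middle one read 429, 351 and 316 in bone marrow, against 332, 729.8 and 689 in fetal liver (-0.60 ± 0.28, adjusted p = 0.143, limma). Both overlapped through fetal liver replicate 1, and without it both were called lower, at -0.37 (limma adjusted p = 0.0245) and -0.97 (0.00280). The dimmest read 22.8, 21.0 and 27.9 in bone marrow, against 39.8, 58.8 and 92.1 in fetal liver, with no overlap. It was called lower (-1.34 ± 0.37, limma adjusted p = 0.0238), though not without bone marrow replicate 1 (0.0516) or 2 (0.0690) or fetal liver replicate 2 (0.0599) or 3 (0.107), nor with a floor at the control level and no filter (0.0895). Across its 3 probe sets the gene mean had a log2 fold change of -0.72 (limma adjusted p = 0.0294).

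**Figure D3:**
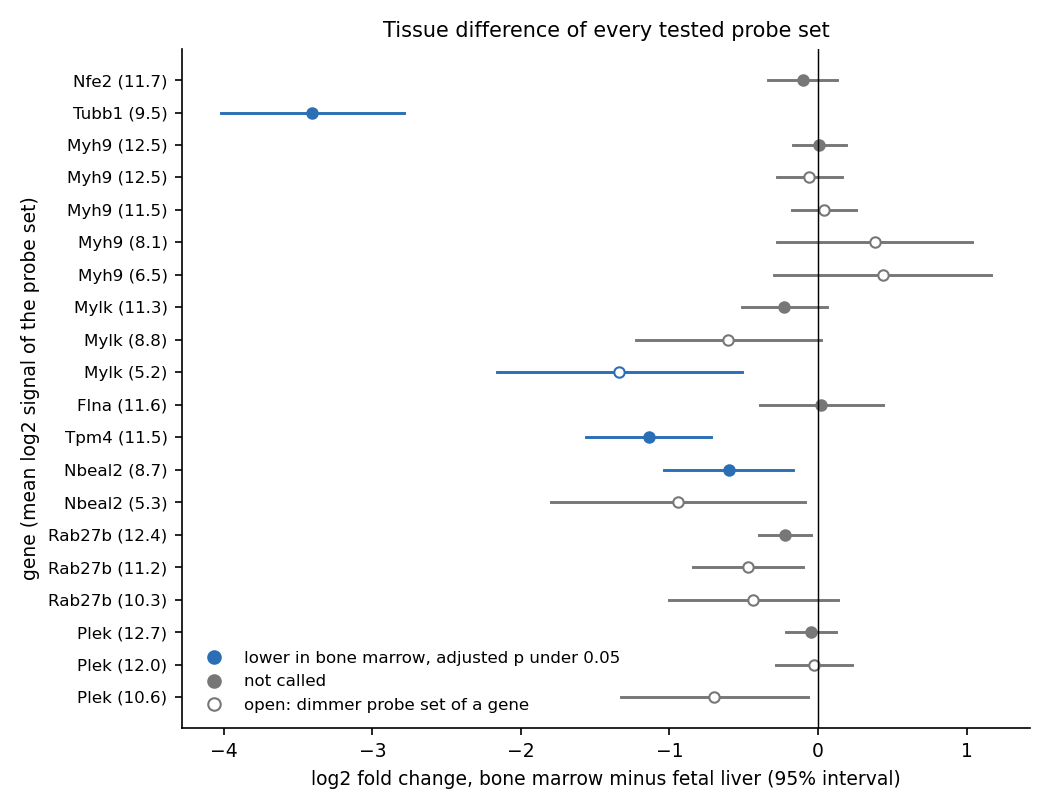
Log2 fold change, bone marrow minus fetal liver, with its 95% interval for each of the 20 probe sets that passed the filter, labelled by gene and mean log2 signal, with open points for the dimmer probe sets of a gene. The intervals of Tubb1, Tpm4, the brighter Nbeal2 and the dimmest Mylk probe set lie below 0 and are called, and the 5 Myh9 intervals all include 0.

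Among 43 other actin and myosin regulators 2 were higher and 7 lower (20.9% called, median log2 fold change -0.10). The 9 calls became 14 without fetal liver replicate 1, where 34 of the 43 lay below the other fetal liver arrays, 5 without bone marrow replicate 1 and 4 without bone marrow replicate 3. Caldesmon, Cald1, averaged 97.4 ± 35.1 in bone marrow and 1099 ± 480 in fetal liver (n = 3 each, SD). The log2 difference was -3.44 ± 0.37 (limma adjusted p = 0.000114), and -3.87 without fetal liver replicate 1. The 4 tested Cald1 probe sets differed in size, from -3.58 to -0.88, with 3 called lower and 1 not called. Tpm2, a tropomyosin that is abundant in muscle, averaged 466 ± 47.1 in bone marrow and 1988 ± 572 in fetal liver (log2 fold change -2.05 ± 0.21, limma adjusted p = 8.55e-05), and all 4 of its probe sets were lower. Without fetal liver replicate 1 the Tpm2 value was -2.32. Tpm1 was lower by less (-0.35 ± 0.10, adjusted p = 0.0272, limma), lost without bone marrow replicate 1 (0.0735), 2 (0.0687) or 3 (0.0870). Myh10, the heavy chain of nonmuscle myosin IIB that megakaryocytes turn down as they mature, averaged 325 ± 174 in bone marrow and 881 ± 149 in fetal liver (-1.63 ± 0.41, limma adjusted p = 0.0158). Bone marrow replicate 1 was the lowest array for Myh10, at 124 against 418 and 433 on the other bone marrow arrays, and without it the log2 fold change was -1.04 (limma adjusted p = 0.00232). Mylk3, the cardiac light chain kinase, was lower as well (-1.58 ± 0.28, adjusted p = 0.00276, limma). In the other direction, Myl6, the essential light chain that sits beside the regulatory one, averaged 1310.0 ± 35.2 in bone marrow and 763 ± 12.7 in fetal liver (0.78 ± 0.10, limma adjusted p = 0.000468). Gsn, the actin-severing gelsolin, was higher (1.36 ± 0.40, limma adjusted p = 0.0320), a call lost without bone marrow replicate 2 (0.113) or 3 (0.0922) and under median centring (0.0688), with a value of 0.85 without fetal liver replicate 1. Of 14 smooth muscle and stromal markers 5 were bright enough to test, with 1 higher, Acta2, and 1 lower, Smtn. Acta2, smooth muscle actin, averaged 94.4 ± 54.7 in bone marrow and 24.4 ± 4.45 in fetal liver samples (SD, n = 3 each), Tagln did not pass (log2 fold change 0.87, limma adjusted p = 0.0610), and Myh11, smooth muscle myosin, was below the filter. The Acta2 call was lost without bone marrow replicate 2 (limma adjusted p = 0.127) or 3 (0.135) or fetal liver replicate 2 (0.0966) or 3 (0.0833), and that of Smtn, at 176 ± 14.3 in bone marrow and 295 ± 56.5 in fetal liver, without bone marrow replicate 3 (0.0761) or fetal liver replicate 2 (0.0655) or 3 (0.0862). Summed signals of the 5 were 557 to 771 in bone marrow and 648 to 688 in fetal liver.

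Nbeal2, a BEACH-domain protein needed to keep alpha granules and mutated in gray platelet syndrome, fell by a small margin. Its brighter probe set read 313, 409.2 and 331 in bone marrow, against 409.8, 645 and 559.5 in fetal liver, so the highest bone marrow and lowest fetal liver arrays almost met. Means were 351 ± 51.2 in bone marrow and 538 ± 119 in fetal liver samples (SD, n = 3 each). The log2 fold change was -0.60 ± 0.19 (SE, limma adjusted p = 0.0449), with a 95% interval of -1.04 to -0.17, and -0.79 without fetal liver replicate 1 (adjusted p = 0.00915). The call was lost without bone marrow replicate 1 (limma adjusted p = 0.116) or 3 (0.134), without fetal liver replicate 2 (0.148) or 3 (0.131), without the filter (0.0542, or 0.167 with a floor at the control level as well) and without the variance trend (0.0839). The dimmer probe set read 27.6, 22.3 and 34.2 in bone marrow, against 39.3, 43.2 and 88.1 in fetal liver, again without overlap, and was not called (-0.94 ± 0.38, limma adjusted p = 0.0990).

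Rab27b, the Rab GTPase of dense granule packing and secretion, had 4 probe sets, and none was called. The brightest read 5549, 5099.6 and 4760.0 in bone marrow, against 5859, 6158 and 5941 in fetal liver, with no overlap but a small difference. Its log2 fold change was -0.22 ± 0.08 (SE, limma adjusted p = 0.0614), with a 95% interval of -0.40 to -0.05. Testing 1 probe set per gene gave the same value an adjusted p of 0.0462, array weights gave -0.28 (0.00757) and median centring -0.56 (0.00438), all called lower by limma. The next 2 had log2 fold changes of -0.47 ± 0.17 (limma adjusted p = 0.0613) and -0.44 ± 0.25 (0.242). The first of these 2 was called without bone marrow replicate 1 (-0.58, limma adjusted p = 0.0442) or fetal liver replicate 1 (-0.66, 0.00451). The fourth lay below the filter, at 18.7, 4.68 and 7.91 in bone marrow, against 45.2, 14.8 and 19.8 in fetal liver, with 2 of 3 bone marrow arrays under the control level.

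Plek encodes pleckstrin, the main protein kinase C substrate of platelets. Its brightest probe set read 6661, 6183 and 6242 in bone marrow, against 6098, 6733 and 6904 in fetal liver. These overlapped, with a log2 fold change of -0.05 ± 0.08 (SE, limma adjusted p = 0.688) and a 95% interval of -0.22 to 0.12, and its sign turned under quantile normalization (0.04, not called). The second probe set, from the same GenBank record, gave -0.03 ± 0.11 (limma adjusted p = 0.886). The dimmest, also from that record, read 1847, 915 and 973 in bone marrow, against 1349.7, 2134 and 2445 in fetal liver (-0.70 ± 0.28, limma adjusted p = 0.0954). It was called lower without bone marrow replicate 1 (-1.02, limma adjusted p = 0.0111) or fetal liver replicate 1 (-0.95, 0.0222).

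Genes for making granules moved both ways, with 5 of 29 tested higher and 3 lower (27.6% called, median log2 fold change 0.06), and with 4 called without bone marrow replicate 3. Abcc4, a nucleotide transporter found in dense granules of human platelets, averaged 1170.3 ± 26.6 in bone marrow and 369 ± 54.2 in fetal liver (log2 fold change 1.67 ± 0.14, limma adjusted p = 2.58e-05). Among the BEACH relatives of Nbeal2, Lrba was higher, at 669 ± 31.6 in bone marrow and 356 ± 41.6 in fetal liver (0.92 ± 0.14, limma adjusted p = 0.00118). Nbea was lower, at 50.8 ± 20.03 in bone marrow and 235 ± 34.1 in fetal liver (-2.27 ± 0.29, limma adjusted p = 0.000367). Nbeal1 (-0.04, limma adjusted p = 0.897) and Lyst (0.31, 0.172) were not called. Rab38, a Rab of lysosome-related organelles, was higher (0.49 ± 0.09, limma adjusted p = 0.00266), though not under median centring (0.15, 0.299). Rab38 had 2 probe sets, of which 1 was called. Vps33b, which alpha granules need, and Hps4, a dense granule factor, were lower at -0.78 ± 0.19 (limma adjusted p = 0.0130) and -0.52 ± 0.14 (0.0185). Both calls were lost without bone marrow replicate 3 (limma adjusted p = 0.0546 for Vps33b and 0.0852 for Hps4), fetal liver replicate 2 (0.0527 and 0.0508) or fetal liver replicate 3 (0.0529 and 0.0842).

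Of 36 tested genes of the secretion machinery 5 were higher and 9 lower (38.9% called, median log2 fold change -0.19). Rab4a, a Rab of alpha granule release, averaged 438 ± 67.1 in bone marrow and 1168 ± 101 in fetal liver (-1.42 ± 0.15, limma adjusted p = 0.000103). Prkcq, a protein kinase C, was lower (-0.68 ± 0.12, limma adjusted p = 0.00261), as was Nsf, the ATPase that takes SNARE complexes apart (-0.58 ± 0.11, 0.00404). Nsf had 4 probe sets, of which 1 was called. Another kinase of the same family, Prkcb, was higher, at 881 ± 290.1 in bone marrow and 168 ± 45.9 in fetal liver (2.36 ± 0.28, limma adjusted p = 0.000203). Rph3al, a Rab27 and Rab3 effector, was at least 8.03-fold higher against the control level (limma adjusted p = 0.000311), and 2 of 3 fetal liver arrays were under that level, and Rab3d was higher by 0.98 ± 0.17 (0.00198). Rab27a, the closest relative of Rab27b, averaged 1152 ± 334 in bone marrow and 713 ± 207 in fetal liver without passing (0.70 ± 0.24, limma adjusted p = 0.0579), and none of its 4 probe sets was called. It passed without fetal liver replicate 3 (limma adjusted p = 0.0310) and with the replicate block (0.0353). Unc13b, a vesicle-priming factor picked out after its values were seen, had a dim bone marrow mean of 17.9 and 67.3 in fetal liver (-2.01 ± 0.39, limma adjusted p = 0.00459). Unc13b had 2 probe sets, of which 1 was called.

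The lists together named 161 other genes, of which 144 were tested and 44 called, 19 higher and 25 lower (30.6%, against 33.2% of all genes). Among the 22 tested paralogues of the set 2 were higher and 6 lower (median log2 fold change -0.15), and 5 were called without bone marrow replicate 3. Median centring moved the median of all genes to -0.38, against -0.04 as deposited, and turned the called genes to 1340 higher and 5205 lower, against 2009 higher and 1855 lower as deposited, so counts by direction depended on the scaling. Relative to the median of all genes, Tubb1 stood at -3.36 as deposited and -3.44 under quantile normalization, and Tpm4 at -1.10 and -1.01. Without bone marrow replicate 3 the 44 calls became 29.

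**Figure D4:**
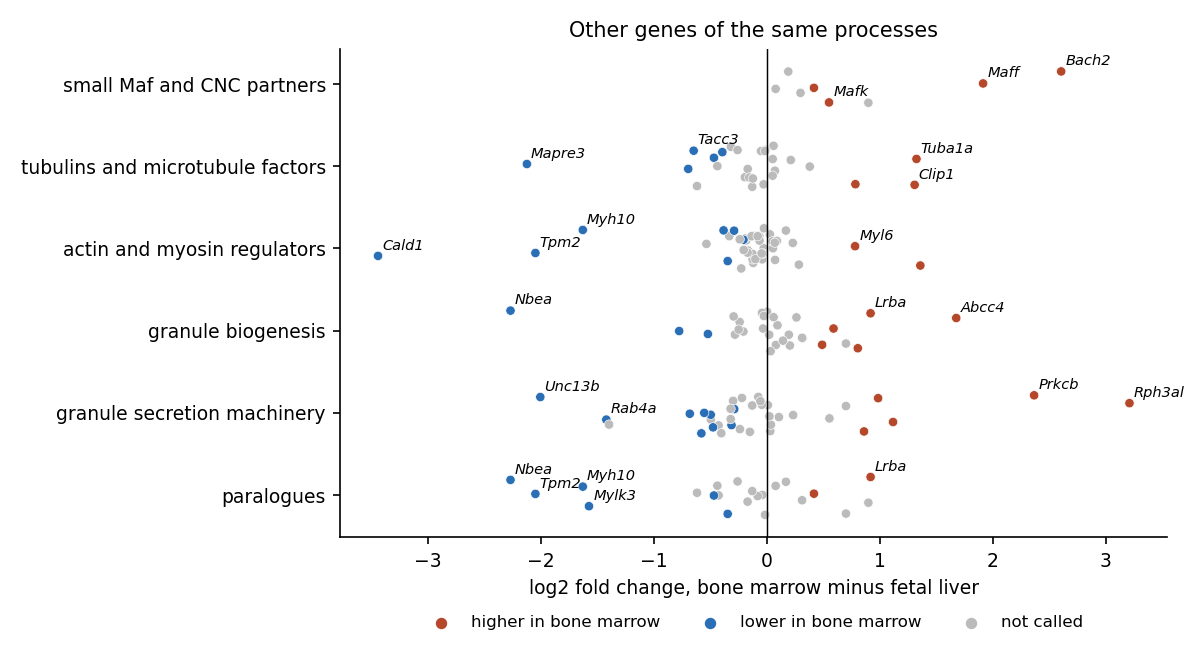
Log2 fold change, bone marrow minus fetal liver, of the tested genes in 6 lists of related genes, 1 point per gene by its brightest probe set, with higher and lower calls in colour and genes that were not called in grey. Calls lie on both sides of 0 in 5 lists and on the higher side alone among the 8 small Maf and cap'n'collar partners, and the furthest values are Cald1 at -3.44 and Rph3al at a fitted 3.21, which is no bound because its fetal liver signal lay near the control level.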

How the data were processed

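Total RNA of 6 samples was hybridised to Affymetrix arrays. The authors deposited 1 intensity per probe set for each array, on a linear scale, computed with MAS5, per the submitters' processing notes, in a version and with settings not given in the sources used here. MAS5 adds no offset, so dim signals spread widely on a log scale. Each column matched 1 sample title, and 0 were left unmapped. Genes were named through the platform annotation, where 34945 of 45037 non-control probe sets had 1 symbol, 932 several and 9160 none listed.

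Signals were log2-transformed. Probe sets with a mean log2 signal above the 40th percentile (a signal of 22.9) were tested, 27022 in all, with limma 3.58.1 in R 4.3.3, tissue as the only term, an intensity-trended variance prior and 4 residual degrees of freedom. P-values were adjusted by Benjamini-Hochberg over all tested probe sets, and each of 11645 genes was represented by its brightest one. Tables, motif searches and plots used Python 3.11.15 with matplotlib 3.10.9, numpy 2.4.6 and pandas 2.3.3. No genome was used, and windows came from the RefSeq table.

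Members and lists were chosen with earlier results of these data known. Named were all members, called paralogues and 6 stated relatives, up to 3 called genes per direction in each other pathway list by adjusted p, defining markers and the 5 genes most like Tubb1. Further genes of these lists, such as Myl12a, Mapre1, Nbeal1 and Runx1, were named after their values were seen. Other marker genes are given as counts and summed signals only. Lists on erythroid, endothelial, hepatoblast and developmental-stage genes gave 3 higher and 1 lower of 9 tested, 0 and 4 of 7, 2 and 1 of 4, and 0 and 5 of 5, with Alas2 higher (a mean of 1695 in bone marrow, 90.4 in fetal liver), and S100a9 of the granulocyte list likewise (12555 and 448).

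Alternatives changed the filter (none, or the 60th percentile), the scaling (quantiles or medians made equal) or the offset (7.54, the 25th percentile), or used a gene's brightest or mean probe set as the unit of adjustment, no variance trend, array weights, a replicate block, or 1 array fewer. A floor at the control level, the 95th percentile of 27 bacterial control probe sets, was chosen after seeing the data. Tested on simulated data of 27022 probe sets, the fit called 42% of 100 that differed 2-fold, 79% of 100 that differed 4-fold and 5 that did not differ. Only 200 probe sets differed there, while 26.8% were called in the data, so these shares need not hold for the real fit. The number of arrays limits the precision.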

Additional observations from a re-analysis of the deposited data

How the results depend on the processing

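Tubb1 was called lower in all 18 alternatives and Tpm4 in 17 of 18. No member was called higher in any. As deposited, 26.8% of probe sets, 33.2% of all genes, 3 member genes (all lower) and 44 list genes were called. Median centring gave 46.3% of probe sets, 56.2% of genes, 7 members and 87 list genes. Array weights gave 40.8% of probe sets, 47.3% of genes, 5 members and 69 list genes. No filter with a floor at the control level gave 11.9% of probe sets, 16.3% of genes, 1 member and 26 list genes. No filter alone gave 16.3% of probe sets and 21.1% of genes. Leaving out single arrays gave 17.1% to 28.7% of probe sets and 21.8% to 35.1% of genes, both lowest without bone marrow replicate 3. It gave 2 to 4 members and 29 to 50 list genes. By list, counts of 8, 4, 8, 9, 8 and 14 for paralogues, small Maf partners, tubulins, actin regulators, granule biogenesis and secretion became 14, 2, 17, 30, 11 and 26 under median centring. With no filter and the floor the first 5 became 3, 1, 4, 4 and 5. Without the variance trend paralogues fell to 4, small Maf partners to 1 and actin regulators to 3. Array weights gave 13 tubulins, 17 actin regulators and 22 secretion genes. Leaving out single arrays gave 5 to 9, 2 to 3, 6 to 10, 4 to 14, 4 to 9 and 12 to 16. The lowest count came without bone marrow replicate 3 for paralogues (5), small Maf partners (2), actin regulators (4) and granule biogenesis (4), and actin regulators gave 5 without bone marrow replicate 1 and 14 without fetal liver replicate 1. Nfe2 and Plek were called lower under median centring alone (-0.44 and -0.38). Named calls lost without the variance trend, besides those in the report, were Acta2, Gata1, Zfpm1, Gsn, Maff, Mafk, Myh10, Nfe2l2, Tpm1 and Tubb4b (adjusted p 0.0523 to 0.109), and those lost with no filter and the floor, besides Tpm4, Nbeal2 and the dimmest Mylk probe set, were Acta2, Gata1, Gsn, Hps4, Maff, Mafk, Mapre3, Myh10, Mylk3, Nfe2l2, Smtn, Tpm1, Ttl, Tubb4b and Vps33b (0.0507 to 0.234). Same-numbered arrays of the tissues deviated together at correlations of 0.0013, 0.11 and -0.16, against -0.11 to 0.12 for differently numbered arrays. With 3 arrays per tissue these values cannot show whether the numbers pair the samples, and the labels do not say. With the replicate block, 3 members were called, again Tubb1, Tpm4 and Nbeal2, and 31.3% of genes; the block changed 1 other call among named genes, that of Rab27a. The cause of these shifts was not tested. No outlier test was run on the groups of 3, and dim probe sets such as Myl9 limit what the signals show.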
